A study of Danio rerio with 50 samples.

Results

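The genes rtn1 and pisd were followed in the livers of adult zebrafish males (Danio rerio, a fish widely used in toxicology) exposed to estradiol, the main estrogen of egg-laying females. The 2 genes had been picked because they rose strongly with dose on these same arrays, so their differences from controls are given as values without a test. They are 2 of 9264 named genes on the platform, and each had 1 of its 23232 probes. The probe of rtn1 (5460666) carried that symbol in the platform annotation, and rtn1 is an older name of both rtn1a and rtn1b, so the annotation leaves unsettled which of this pair of paralogs it reads. The probe of pisd (5470156) carried the clone name wu:fd05a08, an older synonym of pisd. No genome positions were used.

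The untreated groups had 8 arrays (24 h) and 7 arrays (96 h). Estradiol was given at 0.5, 5 or 50 µg/L, with 6 arrays per dose for the 24 h exposure and, in the same order, 6, 4 and 7 for the 96 h exposure. On each of the 50 arrays, liver RNA of the males was labelled with Cy5 and compared with 1 common reference, a pool of equal amounts of male and female liver RNA of wild-type zebrafish labelled with Cy3. The labels give no strain for the males and are silent on tanks and on pooling of fish within a sample, so a p-value here reflects sample-to-sample spread that may be partly technical. Titles set the groups. At 96 h, most descriptions of the 50 µg/L group state a slightly longer exposure than the titles, and for the 5 µg/L group they count more replicates than the 4 analysed here.

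The arrays gave values for 17483 to 22746 probes each. On the 35 treated arrays, the only ones whose spot brightness was analysed here, the median Cy5 brightness ranged from 187 to 916 scanner units, and 25.2% to 94.4% of Cy5 spots lay above background. Under 60% of Cy5 spots were above background on 5 arrays, replicates 3, 4 and 5 of 50 µg/L at 24 h and replicates 3 and 4 of 50 µg/L at 96 h. All 13 measured hepatocyte markers were above background on most of the treated arrays. So were 17 of 21 markers of neurons and neuroendocrine cells, 14 of 14 of exocrine pancreas, 11 of 11 of erythrocytes, 10 of 11 of leukocytes and 10 of 11 of ovary, so detection alone does not set the liver apart from these cell types.

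Reticulons are membrane proteins of the endoplasmic reticulum (ER). Hairpin-shaped stretches of these proteins sit in the outer leaflet of the membrane and bend it into tubules, and reticulon 1 is known in mammals mainly from neurons and neuroendocrine cells. The enzyme encoded by pisd, phosphatidylserine decarboxylase, lies in the inner membrane of mitochondria and removes the carboxyl group of phosphatidylserine to give phosphatidylethanolamine, an abundant membrane phospholipid. Estrogen makes the fish liver produce vitellogenins, yolk proteins that carry phospholipid and leave the hepatocyte through the ER.

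The measured level of rtn1 was below that of the pool in untreated males and many times higher than in controls after 5 or 50 µg/L. All levels here are log2 ratios of the fish sample to the pool, so 0 means an equal measured level and each unit is a doubling. The fish sample carried Cy5 on every array, so dye bias can shift a level and cancels only in differences between groups. At 24 h the untreated males had a lowest value of -2.40, a median of -1.29 and a highest value of -0.60, and a mean of -1.27 ± 0.55 (SD, n = 8). At 96 h the controls ran from -2.44 through a median of -1.71 to -1.33, with a mean of -1.79 ± 0.40 (SD, n = 7). The control groups overlapped, and both lay wholly below 0.

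With 0.5 µg/L for 24 h, rtn1 ran from -0.58 through a median of -0.12 to 0.23, with a mean of -0.12 ± 0.30 (SD, n = 6). The lowest of these arrays stood only 0.02 above the highest control. With 5 µg/L it ran from 2.03 through 2.50 to 2.94 (mean 2.48 ± 0.31, SD, n = 6), and with 50 µg/L from 2.21 through 2.87 to 3.89 (mean 2.97 ± 0.73, SD, n = 6). Both higher doses were far above the controls and overlapped each other.

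After 96 h with 0.5 µg/L the 6 arrays of rtn1 were widely spread, from 0.38 through a median of 1.69 to 3.53, with a mean of 1.80 ± 1.14 (SD). The 4 arrays of 5 µg/L read 3.95, 4.22, 4.32 and 4.91 (mean 4.35 ± 0.40, SD). The 7 arrays of 50 µg/L ran from 3.14 through 4.61 to 5.02 (mean 4.47 ± 0.64, SD). The scanner's upper limit was reached by the rtn1 spot on 1 of these 4 arrays (replicate 2, the lowest of them) and on 2 of these 7 (replicates 1 and 5). These 3 ratios can therefore read too low, and so can the group means that hold them. On the linear scale the mean ratio of rtn1 to the pool was 0.414 and 0.289 in controls at 24 and 96 h. After 96 h with 5 and 50 µg/L it measured 20.4 and 22.2.

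Set against the controls of the same time, rtn1 was higher at 24 h by 1.15 ± 0.32 (SE of the fit), 3.75 ± 0.32 and 4.24 ± 0.32 with rising dose, which are 2.22-fold, 13.5-fold and 19.0-fold. At 96 h the difference was 3.59 ± 0.33 (12.1-fold) at 0.5 µg/L. At 5 and 50 µg/L it measured 6.14 ± 0.37 and 6.26 ± 0.31, or at least 70.7-fold and 76.8-fold, lower limits because of the arrays at the top of the range. Every treated array of rtn1 lay above every control array of its time at each of the 3 doses and both times. The share of all tested probes with such a gap was 0.254%, 1.31% and 3.16% for the 3 doses at 24 h and 1.29%, 4.75% and 3.12% at 96 h, and since rtn1 was picked on this contrast nothing is read from the comparison. By size of the difference rtn1 stood between 3rd and 5th of 9170 named genes in each comparison, except 50th at 0.5 µg/L for 24 h. Among all 22046 tested probes it stood between 33rd and 44th, and 111th at 0.5 µg/L for 24 h. In bulk liver a change in the RNA of each cell and a change in the share of a cell type cannot be told apart.

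The measured level of pisd, which dye bias can shift too, started above the pool and did not follow the same course at the lowest dose. Untreated males at 24 h ran from 0.36 through a median of 1.03 to 1.96, with a mean of 1.11 ± 0.51 (SD, n = 8). Those at 96 h ran from 0.27 through 1.28 to 1.91, with a mean of 1.20 ± 0.64 (SD, n = 7). The control groups overlapped along most of their range.

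With 0.5 µg/L for 24 h, pisd was lower than in controls, from -0.16 through a median of 0.21 to 0.68, with a mean of 0.18 ± 0.31 (SD, n = 6). Of these 6 arrays 5 lay below the lowest control, and none lay above the highest. With 5 µg/L the arrays spread from 1.45 through 2.99 to 4.72 (mean 3.12 ± 1.25, SD, n = 6), and 5 of 6 lay above every control. With 50 µg/L pisd ran from 3.04 through 4.40 to 4.84 (mean 4.17 ± 0.66, SD, n = 6), with all 6 arrays above the controls. This was so for 3.16% of all tested probes, and shares for the partial overlaps at the lower doses are not given here.

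After 96 h with 0.5 µg/L, pisd lay among the controls, from 0.42 through a median of 1.14 to 2.59 (mean 1.41 ± 0.87, SD, n = 6), with 2 of 6 arrays above the highest control. The 4 arrays of 5 µg/L read 3.64, 4.95, 5.10 and 5.16 (mean 4.71 ± 0.72, SD). The 7 arrays of 50 µg/L ran from 3.52 through 4.24 to 5.10 (mean 4.33 ± 0.60, SD). Both higher doses lay wholly above the controls and overlapped each other. Such a gap from the controls was seen for 4.75% and 3.12% of all tested probes at 5 and 50 µg/L. Since pisd was picked for its rise with dose, nothing is read from these comparisons at either time.

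Against the controls of the same time, the difference of pisd at 24 h was -0.93 ± 0.37 (SE of the fit), 2.01 ± 0.37 and 3.06 ± 0.37 with rising dose. These are 0.526-fold, 4.03-fold and 8.35-fold. At 96 h the differences were 0.21 ± 0.38, 3.51 ± 0.43 and 3.14 ± 0.37, or 1.16-fold, 11.4-fold and 8.79-fold. The 9170 named genes were ordered from the largest rise. Among them pisd stood 9125th and 2267th at 0.5 µg/L for 24 and 96 h, and between 10th and 20th at the higher doses. Among all 22046 tested probes it stood 21940th and 4363rd at 0.5 µg/L, and between 53rd and 71st at the higher doses.

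**Figure D1:**
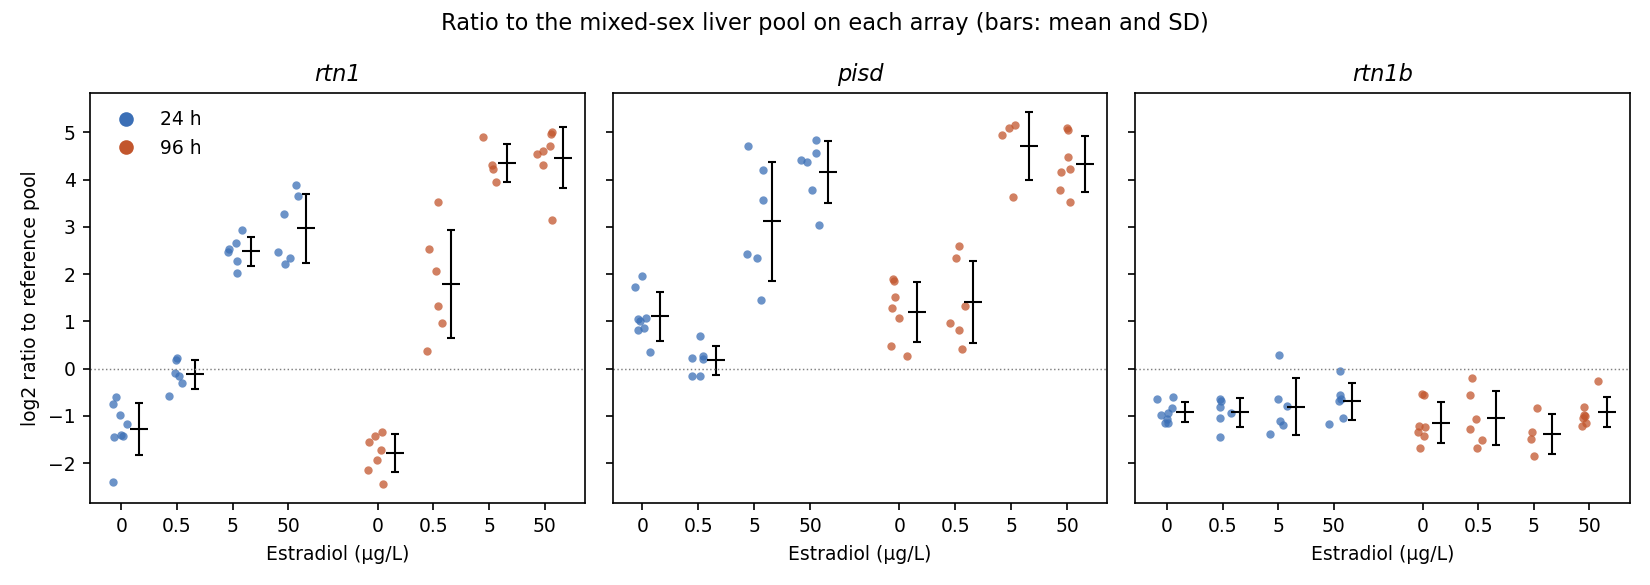
Log2 ratio to the mixed-sex liver pool (y axis) on each array for rtn1, pisd and the separate rtn1b probe, by estradiol dose in µg/L (x axis, 0 is untreated), with blue points at 24 h and orange points at 96 h. Black bars give the mean and SD of a group. The rtn1 points lie from -2.44 in controls to 5.02 at 50 µg/L, and pisd lies below most controls at 0.5 µg/L for 24 h. The points of rtn1b, a dim spot, stay between -1.85 and 0.29 in treated males.

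In order of their mean levels, the 8 groups of rtn1 ran from controls at 96 h and 24 h through 0.5 µg/L at 24 h, 0.5 µg/L at 96 h, 5 µg/L at 24 h and 50 µg/L at 24 h to 5 and 50 µg/L at 96 h. Arrays did not overlap between 24 h controls and 0.5 µg/L at 24 h, between the 0.5 µg/L groups, or between 50 µg/L at 24 h and 5 µg/L at 96 h, where the gap was 0.06. The other neighbours in this order overlapped. The share of all tested probes with the gap in the same direction was 1.19% for the 0.5 µg/L groups and 1.38% for the last pair. For pisd the order was 0.5 µg/L at 24 h, controls at 24 h, controls at 96 h, 0.5 µg/L at 96 h, 5 µg/L at 24 h, 50 µg/L at 24 h, 50 µg/L at 96 h and 5 µg/L at 96 h. Every neighbouring pair of pisd groups overlapped.

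From 0.5 to 5 µg/L rtn1 stepped up by 2.60 ± 0.34 at 24 h and 2.55 ± 0.38 at 96 h, and pisd by 2.94 ± 0.40 and 3.30 ± 0.44. For pisd at both times and for rtn1 at 24 h this was the largest step between neighbouring doses, whereas for rtn1 at 96 h the measured step from controls to 0.5 µg/L was larger (3.59). The 96 h step of pisd was the largest of all 22046 tested probes, a rank that the choice of the gene for its rise with dose bears on. From 5 to 50 µg/L the steps were 0.49 ± 0.34 and 0.12 ± 0.37 for rtn1, and 1.05 ± 0.40 and -0.38 ± 0.43 for pisd, at 24 and 96 h. At 96 h the upper steps of rtn1 rest on groups with spots at the scanner's upper limit. Its step from 0.5 to 5 µg/L may therefore be too low, and the size of that from 5 to 50 µg/L is unsettled.

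The brightness of the spots behind these ratios showed that rtn1 was near the top of the scanner's range at the highest levels. With rising dose, the median Cy5 brightness of rtn1 was 2322, 17871 and 21422 scanner units at 24 h, and 8620, 50118 and 46264 at 96 h. Its Cy3 brightness, from the pool, stayed between medians of 2347 and 3661. The median Cy5 pixel of rtn1 reached the top of the range on 1 of 4 arrays at 5 µg/L and 2 of 7 at 50 µg/L at 96 h. On those arrays its brightness is a lower limit and its ratio can read too low.

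The pisd spot was dimmer and never reached that top. Its median Cy5 brightness was 1156, 6443 and 9886 scanner units at 24 h and 1999, 15771 and 12648 at 96 h, against Cy3 medians of 645 to 978. Both channels of rtn1 and the Cy5 channel of pisd were above background on every treated array. The Cy3 spot of pisd was above background on 5 of 6 arrays of 0.5 µg/L at 24 h and on every array of the other treated groups. For the control arrays, spot brightness was not analysed here.

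**Figure D2:**
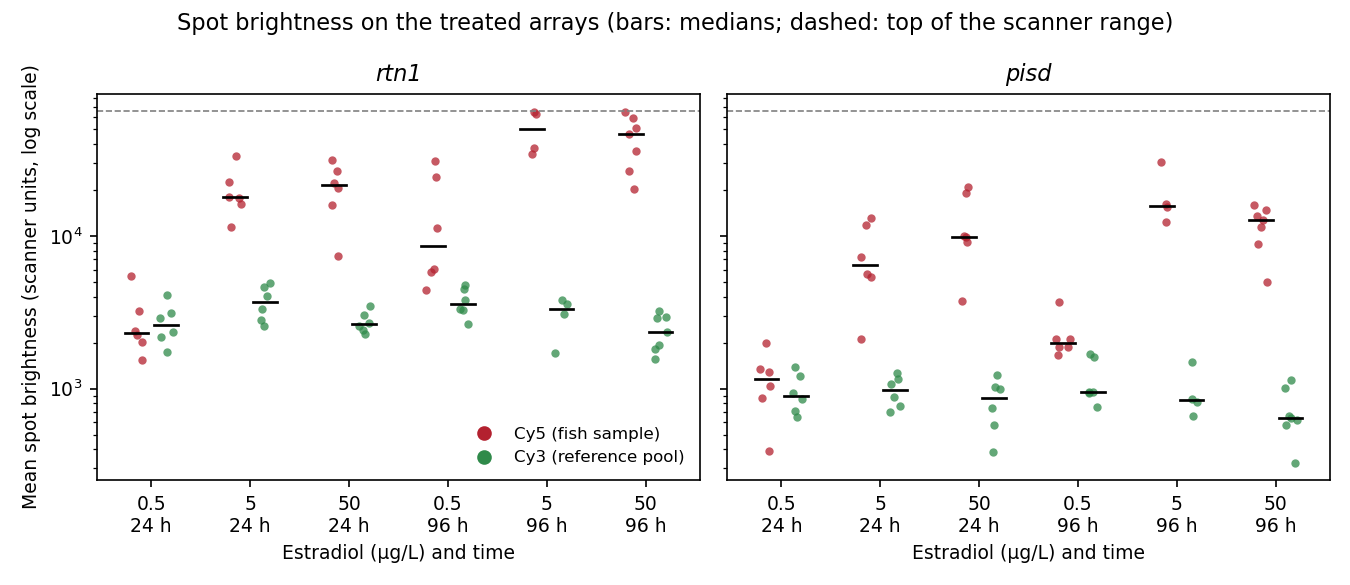
Mean spot brightness in scanner units (y axis, log scale) of rtn1 and pisd on the 35 treated arrays, by dose in µg/L and time (x axis), with red points for Cy5 (the fish sample) and green points for Cy3 (the reference pool). Black bars are medians and the dashed line is the top of the scanner range. The Cy5 medians of rtn1 at 96 h reach 50118 and 46264 at 5 and 50 µg/L, while its Cy3 medians stay between 2347 and 3661.

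Whether the response grew with time was tested with limma over all 22046 probes. The genes were picked for their rise with dose and not for this gain, but the gain is computed from the same rises. The choice of the genes therefore bears on its size and on its adjusted p. The difference of rtn1 from its controls was larger at 96 h than at 24 h at every dose. The gain at the lowest dose was 2.44 ± 0.46 (SE, limma, adjusted p = 0.000857), that at 5 µg/L was 2.39 ± 0.49 (adjusted p = 0.00497) and that at 50 µg/L was 2.02 ± 0.45 (adjusted p = 0.0309). The gains at 5 and 50 µg/L rest on the 96 h groups with rtn1 spots at the top of the range. All 3 passed the threshold of 0.05, where 0.699%, 0.966% and 0.172% of all tested probes gained at the 3 doses. By size of the gain rtn1 was 12th, 5th and 10th of the named genes, and 54th, 26th and 15th of all tested probes. The same choice bears on these ranks and on the comparison with the shares of all tested probes, so nothing is read from them.

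The call at 50 µg/L was the least firm of the 3. It held in 17 of 28 fits that each left out 1 array, with adjusted p from 0.00774 to 0.0888. Without the 5 arrays of low signal the gain was 2.39 (adjusted p = 0.00907). With quantile normalization the gains at 5 and 50 µg/L were 1.52 and 1.23 and no longer passed (adjusted p = 0.0957 and 0.269).

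The time course of pisd did not pass the test at any dose. Its gain from 24 to 96 h was 1.14 ± 0.53 (SE) at 0.5 µg/L (95% interval 0.07 to 2.20, limma, adjusted p = 0.461). At 5 µg/L it was 1.50 ± 0.57 (0.36 to 2.64, adjusted p = 0.219). At 50 µg/L it was 0.07 ± 0.52 (-0.97 to 1.12, adjusted p = 0.983). Whether the gains of rtn1 and pisd differ from each other was not tested. The starting levels did not pass either: controls at 96 h differed from those at 24 h by -0.52 ± 0.30 for rtn1 (adjusted p = 0.516) and by 0.09 ± 0.35 for pisd (adjusted p = 0.957), where 1.02% of all tested probes changed.

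**Figure D3:**
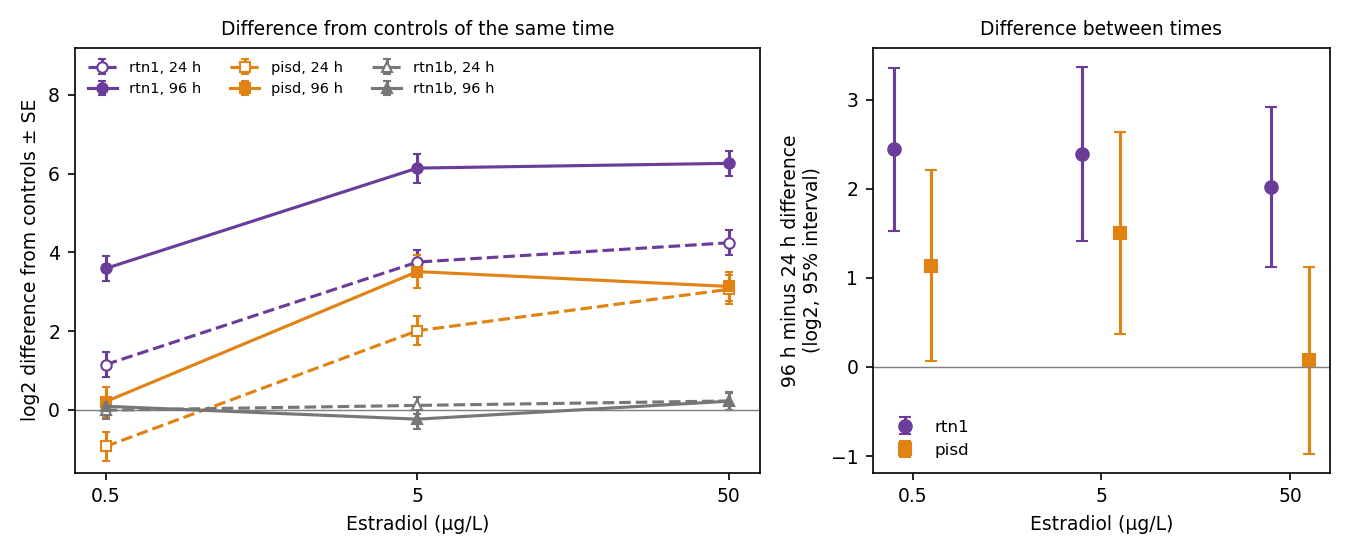
Left, log2 difference from controls of the same time ± SE of the fit (y axis) against estradiol dose in µg/L (x axis) for rtn1, pisd and rtn1b, with open symbols at 24 h and filled symbols at 96 h. Right, the difference at 96 h minus that at 24 h with its 95% interval at each dose. The rtn1 gains of 2.44, 2.39 and 2.02 have intervals above 0, and the pisd gain at 50 µg/L is 0.07.

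Across all 50 arrays the levels of rtn1 and pisd correlated at Pearson r = 0.785, a description that shares the dose groups in both genes. Of 9098 named genes compared, 73 had a higher r to rtn1 than pisd had, and 81 had a higher r to pisd than rtn1 had. Once each array was set against the mean of its own group, no relation was found between the deviations of the 2 genes (r = -0.036, two-sided p = 0.828; Spearman's rho = -0.098, p = 0.541; 100000 permutations within groups, n = 50 arrays, the only relation tested). Without the 2 arrays farthest from the median deviation of rtn1, r was -0.193 (permutation p = 0.199). Within single groups r ran from -0.60 in controls at 96 h to 0.51 at 0.5 µg/L for 24 h.

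**Figure D4:**
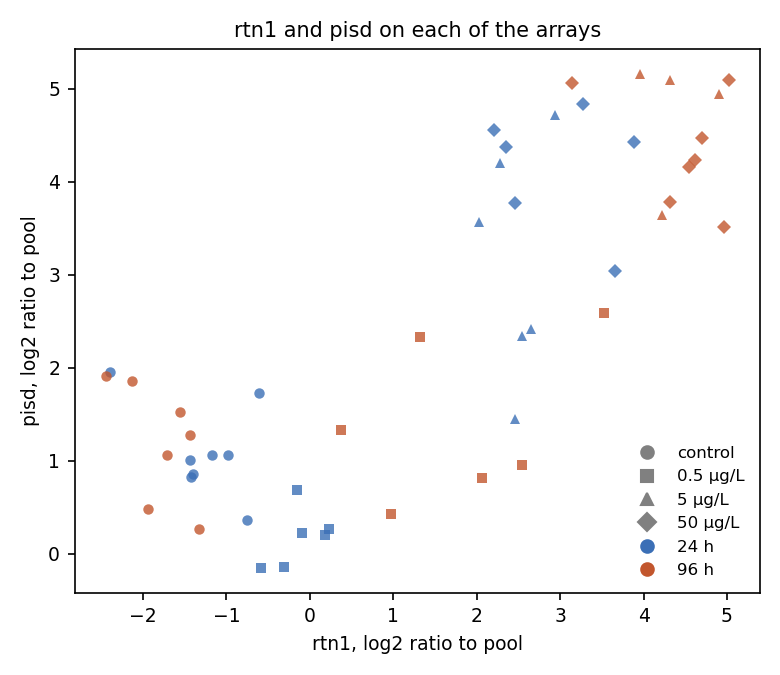
Log2 ratio to the pool of pisd (y axis) against that of rtn1 (x axis) on each of the 50 arrays, with marker shape for dose and colour for time. Controls and 0.5 µg/L at 24 h lie at the lower left, and the higher doses lie at the upper right with r = 0.785 over all arrays.

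The named genes whose levels were most like those of rtn1 over the 50 arrays were nots, cpn1, pycard, pax9 and vtg7. Their Pearson r to rtn1 was 0.949, 0.931, 0.929, 0.918 and 0.917, given as a description over arrays that share the same groups. The gene nots encodes an aspartic protease of fish liver, cpn1 a subunit of carboxypeptidase N, pycard an adaptor of inflammasomes, pax9 a transcription factor, and vtg7 a vitellogenin. At 50 µg/L for 96 h nots was 6.03 higher than in controls, pycard 4.23 and cpn1 2.68 (log2). For deviations from the group means, r to rtn1 was 0.48 for pycard, 0.46 for nots, 0.35 for cpn1, 0.21 for pax9 and 0.14 for vtg7. The genes were picked by r over the same arrays, which includes these deviations. The choice can therefore raise these values, and they were not tested.

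Those most like pisd were mcfd2, rrbp1a, cds2, rheb and abcf1, with r of 0.933, 0.890, 0.881, 0.876 and 0.874. In mammals mcfd2 encodes part of a cargo receptor that carries clotting factors from the ER to the Golgi, rrbp1a is the zebrafish form of a ribosome-binding protein of the rough ER, and cds2 encodes a CDP-diacylglycerol synthase. The product of rheb is a GTPase that switches on the growth kinase mTORC1, and abcf1 encodes a protein of translation initiation. Like pisd, mcfd2 was lower than in controls at 0.5 µg/L for 24 h (-0.76) and higher at 50 µg/L for 24 h (2.18) and 96 h (2.55). For deviations from the group means, r to pisd was 0.79 for mcfd2, 0.58 for cds2, 0.57 for abcf1, 0.41 for rheb and 0.11 for rrbp1a. These genes too were picked by r over the same arrays, so the choice can raise these values, and they were not tested. Second probes of rheb and abcf1 had r of 0.481 and 0.356 only, while those of mcfd2 (0.866) and rrbp1a (0.911 and 0.906) were close to the values above.

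Probes annotated to other reticulon symbols did not pass the test. Of 7 listed genes 3 were measured, and none changed at 50 µg/L for 96 h, where 18% of all tested probes changed, 9.19% by rising and 8.78% by falling. At that dose and time rtn1b differed from controls by 0.22 ± 0.22 (SE, limma, adjusted p = 0.537), rtn3 by -0.24 ± 0.18 (adjusted p = 0.378) and rtn4a by -0.18 ± 0.17 (adjusted p = 0.523). None of the 3 had an unadjusted p under 0.05 there. Their median was -0.18, against 0.09 over all named genes. Second probes measured 0.46 for rtn3 (limma, adjusted p = 0.17), the opposite sign, and -0.47 for rtn4a (adjusted p = 0.25). The annotation leaves open that the rtn1 probe also reads rtn1b. In that case probes of the same gene disagree, with 6.26 against 0.22 at 50 µg/L for 96 h, and rtn1b is not a separate reticulon here. Which gene the rtn1 probe reads was not tested. The rtn1b probe (5463041) carried the older symbol rtn1l, and its differences from controls ranged from -0.24 to 0.23 over the 6 comparisons. Its spot was dim, with group medians of Cy5 brightness from 172.5 to 289.5 scanner units on the treated arrays. It was above background on 29 of 35 treated arrays. These included 4 of 6 with 50 µg/L for 24 h, and 3 of 4 with 5 µg/L and 5 of 7 with 50 µg/L for 96 h. A spot this dim limits what its differences can show. The rtn1b probe read -0.92 ± 0.21 (SD, n = 8) in controls at 24 h and -0.92 ± 0.32 (SD, n = 7) at 50 µg/L for 96 h.

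Among 23 measured genes for proteins that shape the ER or form its rough sheets, 7 rose and none fell at 50 µg/L for 96 h. In that comparison 9.19% of all tested probes rose and 8.78% fell, and the median of the 23 genes was 0.21. The lists here hold named genes with a single probe each. Over all 9170 named genes, a closer background for them, 1220 rose and 748 fell. The largest change was that of rrbp1a, the ribosome-binding protein (3.03, limma, adjusted p = 3.61e-18), whose other probes rose by 2.42 and 1.49. The gene reep3b, for a protein of ER tubules, rose by 0.96 (adjusted p = 8.6e-08), and atl3, for an atlastin that fuses ER tubules, by 0.88 (adjusted p = 2.03e-05). One probe of sec61b, a subunit of the channel through which new proteins enter the ER, rose by 1.32 (adjusted p = 0.000102), but its other probe measured 0.44 (adjusted p = 0.276). At 24 h, 0, 2 and 5 of the 23 rose with rising dose, against 0.209%, 2.93% and 7.09% of all tested probes. Of the 9170 named genes 9, 381 and 875 rose. At 96 h, 2 and 5 of the 23 rose with 0.5 and 5 µg/L, against 2% and 7.12% of all tested probes and 242 and 903 of the 9170 named genes. None of the 23 fell in these comparisons. The 2 that rose with 5 µg/L at 24 h were rrbp1a and sec61b, but the other probe of sec61b measured 0.0099 there (limma, adjusted p = 0.996).

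Genes next to pisd in phosphatidylserine and phosphatidylethanolamine synthesis and transport did not pass the test at 50 µg/L for 96 h. None of the 8 measured of 16 listed passed (1 of 8 at an unadjusted limma p under 0.05), where 18% of all tested probes changed. With so few genes nothing is read from this count, and not passing does not show that a gene was unchanged. The median of the 8 was 0.10. The mitochondrial transfer genes prelid1a and prelid3b measured 0.49 (limma, adjusted p = 0.0876) and -0.28 (adjusted p = 0.523), pcyt2, an enzyme of the ethanolamine route to phosphatidylethanolamine, 0.26 (adjusted p = 0.556), and ptdss1a, a phosphatidylserine synthase, -0.20 (adjusted p = 0.554). At 50 µg/L for 24 h 1 of 8 rose, triap1 (0.74, adjusted p = 0.00984), a partner of the proteins that carry phospholipid between mitochondrial membranes, where 12.8% of all tested probes changed. None of the 8 changed in the other 4 comparisons (1 to 3 of 8 at an unadjusted limma p under 0.05), in which 0.503% and 6.08% (0.5 and 5 µg/L, 24 h) and 3.25% and 12.6% (96 h) of all tested probes changed.

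In phosphatidylcholine synthesis, 2 of 7 measured genes rose and 1 fell at 50 µg/L for 96 h, with a median of 0.53. In that comparison 9.19% of all tested probes rose and 8.78% fell. The choline kinase genes chka (2.29, adjusted p = 6.02e-09) and chkb (1.03, adjusted p = 0.00649), for the first step of the choline route, rose. The gene mat1a, which makes the methyl donor S-adenosylmethionine, fell by 1.06 (adjusted p = 0.002). Already at 24 h, chka had risen by 2.38 with 5 µg/L and by 2.57 with 50 µg/L (adjusted p = 9.7e-09 and 4.26e-10). At 50 µg/L for 24 h 2 of the 7 rose and 2 fell, where 7.09% of all tested probes rose and 5.7% fell.

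Of 11 measured genes for phosphatidic acid, CDP-diacylglycerol, phosphatidylinositol and cardiolipin synthesis, 2 rose and 1 fell at 50 µg/L for 96 h. In that comparison 9.19% of all tested probes rose and 8.78% fell, and the median of the 11 genes was 0.11. The CDP-diacylglycerol synthase gene cds2 rose by 1.50 (adjusted p = 1.8e-05) and cdipt, for the enzyme that makes phosphatidylinositol, by 0.54 (adjusted p = 0.0388). The acyltransferase gene agpat3 fell by 1.08 (adjusted p = 8.39e-05), and its other probe fell by 1.17. Another probe of agpat4 rose by 1.12 (adjusted p = 3.43e-06), while its representative probe measured 0.10.

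For acyl chain remodelling of phospholipids, 1 of 10 measured genes rose and 1 fell at 50 µg/L for 96 h, with a median of 0.19. The acyltransferase gene lpgat1 rose by 1.44 (adjusted p = 1.18e-06) and pla2g12b, a member of the phospholipase A2 family expressed in liver, fell by 1.51 (adjusted p = 8.94e-06). Over all 9170 named genes, 1220 rose and 748 fell in this comparison. All of these comparisons at 96 h share the same 7 controls.

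**Figure D5:**
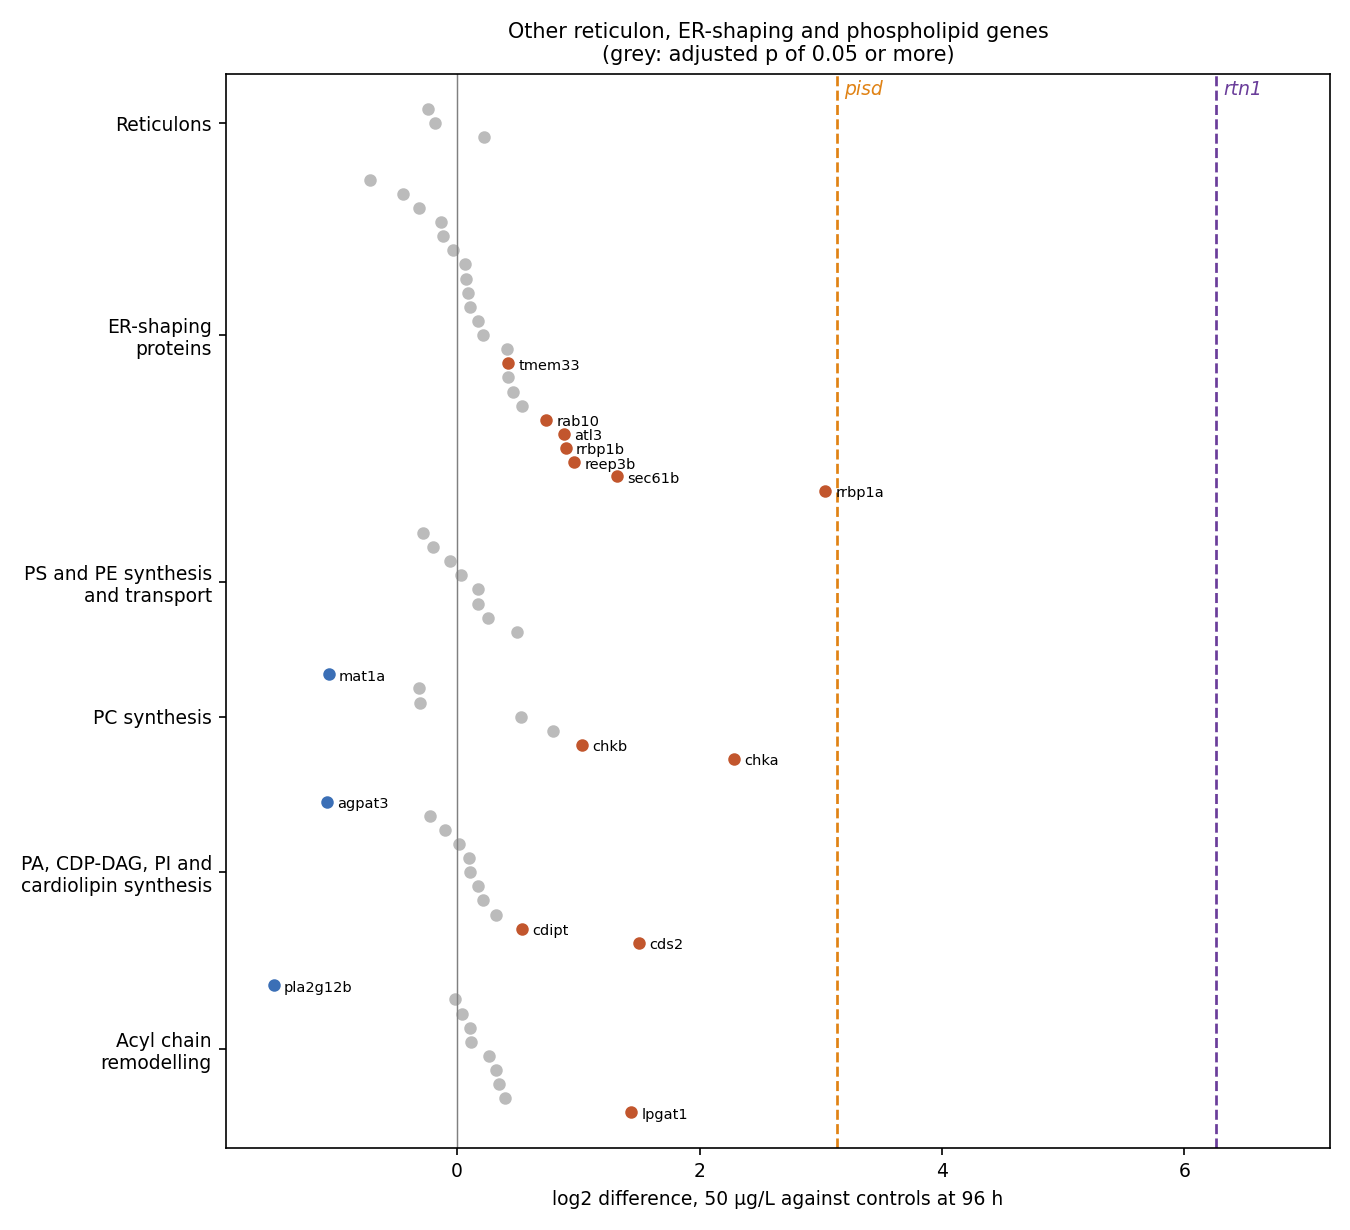
Log2 difference of 50 µg/L against controls at 96 h (x axis) for each measured gene of 6 lists (y axis, genes ordered by value within a list), with orange points for genes that rose, blue points for genes that fell and grey points for the rest (PS, phosphatidylserine; PE, phosphatidylethanolamine; PC, phosphatidylcholine; PA, phosphatidic acid; CDP-DAG, CDP-diacylglycerol; PI, phosphatidylinositol). Dashed lines mark pisd and rtn1 at 3.14 and 6.26, and rrbp1a at 3.03 is the nearest point to pisd.

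Hepatocyte markers fell with estradiol, and the lists of other cell types are described after them. Of 13 hepatocyte markers 9 fell and none rose at 50 µg/L for 96 h (median -1.27). With rising dose 2, 6 and 8 fell at 24 h and 1, 9 and 9 at 96 h. Of all 22046 tested probes, 65, 695 and 1256 fell at 24 h and 276, 1209 and 1935 at 96 h. The markers that fell at 50 µg/L for 96 h included hp, which encodes haptoglobin (-3.19, limma, adjusted p = 4.94e-11). Another was serpina1, an antiprotease of blood plasma (-2.49, adjusted p = 4.18e-10), although its second probe measured 0.40 (adjusted p = 0.357). The second probe of rbp4 rose by 1.43 at 50 µg/L for 24 h (limma, adjusted p = 0.0277) and measured -0.62 at 96 h (adjusted p = 0.381). Further probes of fga measured -2.04 (adjusted p = 2.54e-07) and -0.63 (adjusted p = 0.0521) at 50 µg/L for 96 h. The mean log2 ratio of these 13 markers ran from 2.43 to 3.36 on control arrays at 96 h and from 0.79 to 1.90 at 50 µg/L.

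Of 21 neuron and neuroendocrine markers 2 rose and 3 fell at 50 µg/L for 96 h, with a median of 0.08. In that comparison 9.19% of all tested probes rose and 8.78% fell. The mean log2 ratio of the 21 markers ran from -0.67 to -0.36 in controls at 96 h and from -0.72 to -0.34 at 50 µg/L. The 2 markers that rose were sncgb (1.26, limma, adjusted p = 2.05e-06) and scg3 (0.63, adjusted p = 0.0466). The scg3 spot was above background on 16 of 35 treated arrays. Of the 3 that fell only elavl3 is named here (-1.24, limma, adjusted p = 0.00206), so the named genes do not show the direction of the list. The probe of elavl3 was above background on 17 of 35 arrays, and its other probe measured 0.46 (adjusted p = 0.153).

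Of 14 exocrine pancreas markers 3 rose at 50 µg/L for 96 h (median 0.87), where 9.19% of all tested probes rose. None of the 14 changed by limma's adjusted p in the other 5 comparisons with controls. At an unadjusted limma p under 0.05, 11 of 14 changed at 0.5 µg/L for 96 h (median of the 14 markers 0.99), and 0 to 2 in the rest. The share of all tested probes at an unadjusted p is not given for this or any other list. The 96 h controls were themselves lower than the 24 h controls for 6 of these 14 markers (median -1.26), where 160 of all 22046 tested probes fell. None of the 11 erythrocyte, 11 leukocyte or 11 ovary markers changed at 50 µg/L for 96 h on their representative probes by limma's adjusted p (1, 0 and 3 of them at an unadjusted p under 0.05). Second probes differed in 2 cases. That of mpx, which encodes the myeloperoxidase of neutrophils, fell by 4.24 (adjusted p = 2.93e-19) and by 3.59 at the same dose for 24 h, while its representative probe measured 0.91 (adjusted p = 0.312) at 96 h. A second probe of hbbe1.1, a globin gene, rose by 0.56 (adjusted p = 0.0242), against -0.05 on its representative probe. The part of cell composition in the levels of rtn1 and pisd was not tested.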

How the data were processed

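The authors deposited log2 ratios (Cy5 fish sample over Cy3 pool), and the normalization is not given in the sources used here. Per the file headers, the scanner files of the 35 treated arrays also held each spot's brightness (intensity) in both channels, the percent of its pixels above background, and a normalized ratio. The deposited log2 values equalled the value column of those files and correlated with the raw log2 ratio across probes (r from 0.903 to 0.989), and this fixed their direction and scale. The fish sample carried Cy5 on every array, so dye bias cancels only in differences between groups.

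Arrays were centred on their median, and 8 group means were fitted with limma 3.58.1 (lmFit, eBayes; R 4.3.3, data.table version 1.17.8; plots with matplotlib 3.10.9) to the 22046 probes measured on 3 or more arrays in every group. P-values were adjusted by Benjamini-Hochberg over all of them, with a threshold of 0.05. Spots above background had over 50% of pixels above it. Where a gene had several probes, the one brightest in Cy3 on average was used. Old symbols were updated through RefSeq (assembly GRCz12tu).

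The members, lists, markers and tests were chosen with earlier results of these data known. Named genes are every probe of rtn1 and pisd, up to 4 members of each described list with the smallest p at 50 µg/L for 96 h, and the 5 genes (values on at least 40 arrays) with the highest r to each member. Other genes named were chosen after their values were seen: triap1, agpat4, scg3 and the genes of single comparisons at 24 h. The correlation of deviations was added with values known. Samples with the same replicate number showed no general tendency to deviate together (5 of 35 pairs with r over 0.1, median -0.004), so numbers were not treated as pairs. Single pairs ran from r = -0.29 to 0.44, so some may share deviations. The fit was tested on simulated data. Alternatives were values without centring, quantile normalization, no filter, only the arrays of a contrast, array weights, no low-signal arrays, pooled controls, each array left out, the replicate block, and scanner brightness with normexp (offset 50) and loess.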

Additional observations from a re-analysis of the deposited data

Results flagged for a closer look

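Among 16 groups of the members' values tested for a sample far from the others, 3 had one, and chance alone flags about 1 in 20 such groups. For rtn1, replicate 1 of the controls at 24 h read -2.40, below the other 7, and replicate 4 of 50 µg/L at 96 h read 3.14, below the other 6. For pisd, replicate 4 of 5 µg/L at 96 h read 3.64, below the other 3. Replicate 4 of 50 µg/L at 96 h was also 1 of the 5 arrays with under 60% of Cy5 spots above background.

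The response of rtn1 differed between the times by limma's test of that difference: it was larger at 96 h than at 24 h by 2.44, 2.39 and 2.02 (log2) with rising dose. At 5 and 50 µg/L some of its 96 h spots were at the scanner's upper limit. The choice of rtn1 for its rise with dose bears on these differences.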

How the results depend on the processing

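Under the other settings no member's difference from controls changed sign, except that of pisd at 0.5 µg/L for 96 h, which ran from -0.03 to 0.41 when single arrays were left out. With quantile normalization rtn1 at 50 µg/L for 96 h measured 5.62, and its gains between the times at 5 and 50 µg/L were 1.52 (adjusted p = 0.0957) and 1.23 (adjusted p = 0.269). Leaving out 1 array at a time gave rtn1 gains of 2.097 to 2.73, 2.20 to 2.55 and 1.87 to 2.24 at 0.5, 5 and 50 µg/L, and only the call at 50 µg/L was lost in some fits (11 of 28, each time by leaving out replicate 2 of the 24 h controls, replicates 2, 3 and 6 of the 96 h controls, replicates 1, 4 and 6 of 50 µg/L at 24 h, or replicates 1, 3, 5 and 6 of 50 µg/L at 96 h). With the replicate block the 3 gains were 2.47, 2.54 and 2.06 (adjusted p = 0.00188, 0.00576 and 0.0469), and no call on a member changed. Of all tested probes, 111 changed at 0.5 µg/L for 24 h, but 342 with array weights, 44 in a fit of those groups alone and 63 to 175 when single arrays were left out. At 5 µg/L for 24 h 1340 changed, but 2368 with array weights and 2226 with pooled controls. At 0.5 µg/L for 96 h 716 changed, but 1618 with array weights and 415 to 934 when single arrays were left out. At 50 µg/L for 24 h 2820 changed, but 1865 without the low-signal arrays. With array weights, 2, 14 and 24 members of the 6 pathway lists changed at 0.5, 5 and 50 µg/L for 24 h, against 0, 8 and 15 in the main fit. The lists held 3, 23, 8, 7, 11 and 10 measured genes. Over all 22046 tested probes the calls rose too with array weights, to 342, 2368 and 4113 from 111, 1340 and 2820. The causes were not tested. Only 4 arrays at 5 µg/L for 96 h and 1 probe per member limit the precision.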
